A study of Homo sapiens with 12 samples.

Results

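ID1, ID2, ID3 and ID4 are the 4 human genes for inhibitor of DNA binding proteins, and they are 4 of 25369 gene rows in the deposited tables. They were taken by name, and all 4 passed the filter on low values in every group, with 30 as the lowest normalized count of any member in any library. In all 14627 genes were tested. The family was selected on measured values of ID2, which was among the highest genes in the TNIP2 Pulldown, and the rule does not say whether as a level or over the extract. Both are therefore counted as used: every value of TNIP2 Pulldown over TNIP2 Input, and every value of ID2 that uses the TNIP2 Pulldown, is given as a description with no test.

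Proteins that carry a helix-loop-helix domain next to a DNA-contacting basic region bind E-box sequences as dimers, and the E proteins are their widely expressed partners. ID proteins have the helix-loop-helix domain without the basic region, so a dimer of an ID protein with an E protein does not bind DNA. They are known for holding cells in a proliferating, undifferentiated state, and their genes are classic targets of bone morphogenetic protein (BMP) signalling through SMAD transcription factors.

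RNA was sequenced from HEK293T cells, a human embryonic kidney line used for transfection, in 4 groups of 3 libraries. Control cells were transfected with the Halo tag by itself, and TNIP2 cells with the tag joined to amino acids 196 to 346 of TNIP2. The TNIP2 protein is an adaptor in NF-kB signalling. Input is total RNA of the whole cell extract, from 100 µl, and Pulldown is RNA of the material purified through the tag, from 90 µl, with ribosomal RNA removed from both. The fragment was expressed from a plasmid on top of the cells' own TNIP2, and the labels do not say whether libraries of a group were transfected separately, so the p-values describe spread between libraries that may be technical. Table columns show the TNIP2 construct by a letter that matches no label, and it was assigned by elimination. In bulk libraries fewer cells with a transcript and less RNA per cell cannot be told apart, and each Pulldown value is relative to the other RNAs recovered.

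Values are deposited normalized counts, scaled between libraries but not for gene length, and FPKM, which is scaled for both. Whole reads recovered per library ranged from 13793134 to 20794615 for Control Input, from 8892352 to 16775538 for TNIP2 Input and from 10308264 to 29520876 for TNIP2 Pulldown, with the fewest, 3587893 to 6411258, for Control Pulldown. TNIP2 itself, the check of the labels, ran from 272 to 304 normalized counts in Control Input and from 309 to 1472 in Control Pulldown. Its TNIP2 Input libraries held 16750, 13318 and 46568, and its TNIP2 Pulldown libraries 51905, 69806 and 193013. Both libraries numbered 3 of the TNIP2 construct thus held the most TNIP2 transcript. Of 8 listed marks of HEK293 cells, 7 had 10 or more normalized counts in every library of Control Input, of Control Pulldown and of TNIP2 Input. In TNIP2 Pulldown all 8 reached that level. None of the 5 blood markers reached that level in all 3 libraries of any group. HBB was listed at 0 in all 4 groups, and the summed FPKM of the 5 was at most 0.874 in a library. Neither of the 2 liver markers reached it in all 3 libraries of a group. Of 5 fibroblast and endothelium markers, 2 did so in every group, at a summed FPKM of at most 2.163 in a library.

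The windows directly before the 4 start sites are shown first. ID1 and ID3 varied together across the libraries, in the extracts most of all through TNIP2 Input replicate 3, while ID4 did not follow them. Whether the windows bear on this was not tested. Each window is the stretch of 250 bases that ends at the base before the start, from RefSeq on GRCh38.p14, read 5′ to 3′ on the strand of the gene. Capitals mark TATAA or ATAAA on that strand and CCAAT on either strand.
ID1, chr20:31605039-31605288, plus strand: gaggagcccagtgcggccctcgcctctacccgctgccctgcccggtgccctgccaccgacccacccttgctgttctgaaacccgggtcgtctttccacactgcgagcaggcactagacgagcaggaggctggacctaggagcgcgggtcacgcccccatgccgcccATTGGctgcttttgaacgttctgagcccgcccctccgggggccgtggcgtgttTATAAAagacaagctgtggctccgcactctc
ID2, chr2:8681806-8682055, plus strand: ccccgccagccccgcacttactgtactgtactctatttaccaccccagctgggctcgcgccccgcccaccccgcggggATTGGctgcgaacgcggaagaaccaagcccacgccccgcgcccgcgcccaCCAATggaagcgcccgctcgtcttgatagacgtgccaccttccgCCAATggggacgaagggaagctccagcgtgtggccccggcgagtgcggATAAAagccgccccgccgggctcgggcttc
ID3, chr1:23559502-23559751, minus strand: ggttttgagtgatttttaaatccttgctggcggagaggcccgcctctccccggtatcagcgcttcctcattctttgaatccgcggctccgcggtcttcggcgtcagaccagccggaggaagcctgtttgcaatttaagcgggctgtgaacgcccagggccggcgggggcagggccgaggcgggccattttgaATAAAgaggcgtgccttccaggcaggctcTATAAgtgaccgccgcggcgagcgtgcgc
ID4, chr6:19837120-19837369, plus strand: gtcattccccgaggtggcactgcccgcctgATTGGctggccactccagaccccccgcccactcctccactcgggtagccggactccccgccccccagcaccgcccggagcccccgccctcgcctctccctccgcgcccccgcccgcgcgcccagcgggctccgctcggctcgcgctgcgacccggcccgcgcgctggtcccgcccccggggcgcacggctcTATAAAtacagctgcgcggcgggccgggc

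The letters TATAA, the core of a TATA box, stood at position -31 of ID1, at -29 of ID3 and at -29 of ID4, counted back from the start. They occur in this window in 13.6% of 35116 RefSeq entries. ID2 had no TATAA in the window, and had ATAAA at position -30, letters found in 21.4% of windows. ATAAA overlaps TATAA in ID1 and ID4. CCAAT, searched on both strands and present in 32.0% of windows, matched 3 times in ID2, once in ID1, once in ID4 and not in ID3. The GC box GGGCGG, searched on both strands and found in 42.6% of windows, matched 6 times in ID4, 2 times each in ID1 and ID2, and not in ID3. CANNTG, the E-box, which reads the same on both strands in this form and occurs in 61.8% of windows, matched once in ID2 and once in ID4. The SMAD box CAGAC, searched on both strands and found in 38.0% of windows, matched once in ID3 and once in ID4, and GGCGCC, found in 16.4%, matched in none of the 4 windows. These matches are letters only, and sequence outside the 250 bases was not searched, so no match here does not mean that a gene lacks the element. G and C made up 66.0%, 69.2%, 62.0% and 78.8% of the windows of ID1, ID2, ID3 and ID4.

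ID2 was the most abundant member per length in every library. Its FPKM was 111.5 ± 4.49 in Control Input (SD, n = 3), ahead of ID4 at 38.3 ± 1.78, ID3 at 18.9 ± 1.25 and ID1 at 3.43 ± 0.334, and the 3 libraries of each member did not overlap those of the next. Control Pulldown had the same order, with 103.3 ± 3.53, 35.4 ± 1.48, 16.8 ± 4.50 and 2.87 ± 0.662. ID4 had nearly as many normalized counts as ID2 in these groups, but its counted length, read from the ratio of the deposited tables, was 2.84 times that of ID2. ID1 and ID3 were counted over 0.905 and 0.908 of the length of ID2. In TNIP2 Input the order of ID3 and ID4 was not the same in every library, with ID3 at 14.2, 11.3 and 61.9 FPKM and ID4 at 33.6, 32.6 and 30.5. The same held in TNIP2 Pulldown, where ID3 had 70.4, 52.9 and 137.8 FPKM and ID4 had 114.7, 127.1 and 37.4, so those neighbours did not differ beyond their spread.

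ID2 took up a larger part of the family in TNIP2 Pulldown than in any other group. It made up 64.8% ± 0.943 of the summed FPKM of the 4 members in Control Input and 65.3% ± 1.66 in Control Pulldown (SD, n = 3). In TNIP2 Input the share was 65.8%, 65.1% and 54.7%, and in TNIP2 Pulldown 87.6%, 88.2% and 83.3%. ID4 went from 22.4% ± 0.850 in Control Pulldown to 7.31%, 7.95% and 3.15% in TNIP2 Pulldown. These shares rest on the libraries in which ID2 was chosen, and were not tested. Summed FPKM of the family was 150.7 to 168.8 in Control Pulldown and 1185 to 1598 in TNIP2 Pulldown.

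**Figure D1:**
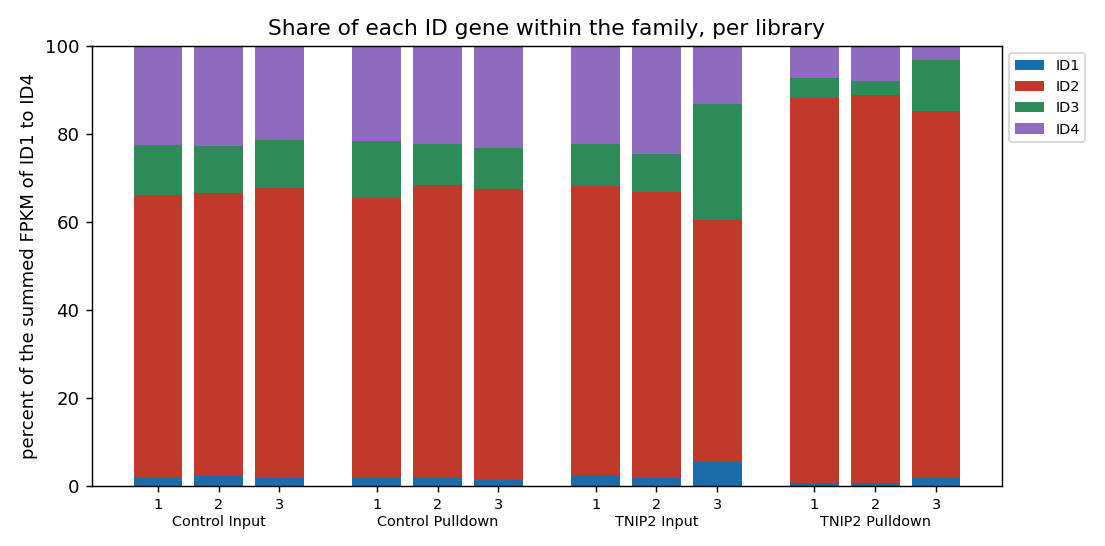
Stacked bars show the percentage of the summed FPKM of ID1 to ID4 held by each member (vertical axis) in each of the 12 libraries (horizontal axis, by group and replicate number). ID2 holds 83.3% to 88.2% in TNIP2 Pulldown, and ID3 is widest in TNIP2 Input replicate 3, at 26.6%.

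ID2, the most strongly represented member, was even across the tag-only libraries, where Control Input held 1776, 1651 and 1766 normalized counts and Control Pulldown 1661, 1553 and 1594. With the fragment, the Input libraries held 1530, 1338 and 1975 and the Pulldown libraries 21330, 21868 and 15327. The TNIP2 Pulldown libraries lay far above the 9 others. The lowest of them was 7.76 times the highest TNIP2 Input library and 9.23 times the highest Control Pulldown library. How many of all genes separate in this way was not counted. The fitted log2 fold change was 3.60 (SE 0.171) over TNIP2 Input, ranking 4 of 14627 genes from the highest. It was 3.59 (SE 0.171) over Control Pulldown, which shares the same TNIP2 Pulldown libraries, and ranked 20 there. In FPKM, ID2 ranked 537 of the genes tested in Control Pulldown and 66 in TNIP2 Pulldown.

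ID1, a member best known from endothelial and stem cells, had the lowest level of the 4. Control Input held 52, 50 and 43 normalized counts of it and Control Pulldown 49, 42 and 30, while TNIP2 Input held 50, 34 and 185 and TNIP2 Pulldown 126, 129 and 316. All 3 TNIP2 Pulldown libraries were above all 3 Control Pulldown libraries, but TNIP2 Input replicate 3 was above 2 of the 3 TNIP2 Pulldown libraries. How many of all genes separate between the Pulldowns, or between TNIP2 Pulldown and TNIP2 Input, was not counted for any member. Between the Pulldowns 30.6% of genes were called higher and 28.7% lower. Control Pulldown values of ID1 rest on 17, 26 and 12 reads, where counting alone gives an error of 19.6% to 28.9%.

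ID3 is often expressed together with ID1, and its levels here ran beside those of ID1. Its normalized counts for the tag alone were 284, 249 and 267 before purification and 309, 197 and 202 after it. For the fragment they were 201, 159 and 873 before and 992, 746 and 1943 after. As with ID1, the groups did not overlap between the 2 Pulldowns, again with no share of all genes counted. They overlapped between TNIP2 Pulldown and TNIP2 Input through replicate 3 of the extract.

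ID4, the member most tied to neural and mammary development, was lowest in the TNIP2 Pulldown library where ID1 and ID3 were highest. Control Input held 1778, 1655 and 1632 normalized counts, Control Pulldown 1604, 1485 and 1591, and TNIP2 Input 1481, 1439 and 1344. The TNIP2 Pulldown libraries held 5058, 5605 and 1647. The third TNIP2 Pulldown library was 1.03 times the highest Control Pulldown library and 1.11 times the highest TNIP2 Input library. The groups thus stood apart only narrowly, and how many of all genes stand apart in this way was not counted. The means, 4103 ± 2145 in TNIP2 Pulldown and 1560 ± 65.3 in Control Pulldown (SD, n = 3), rest on unequal libraries.

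**Figure D2:**
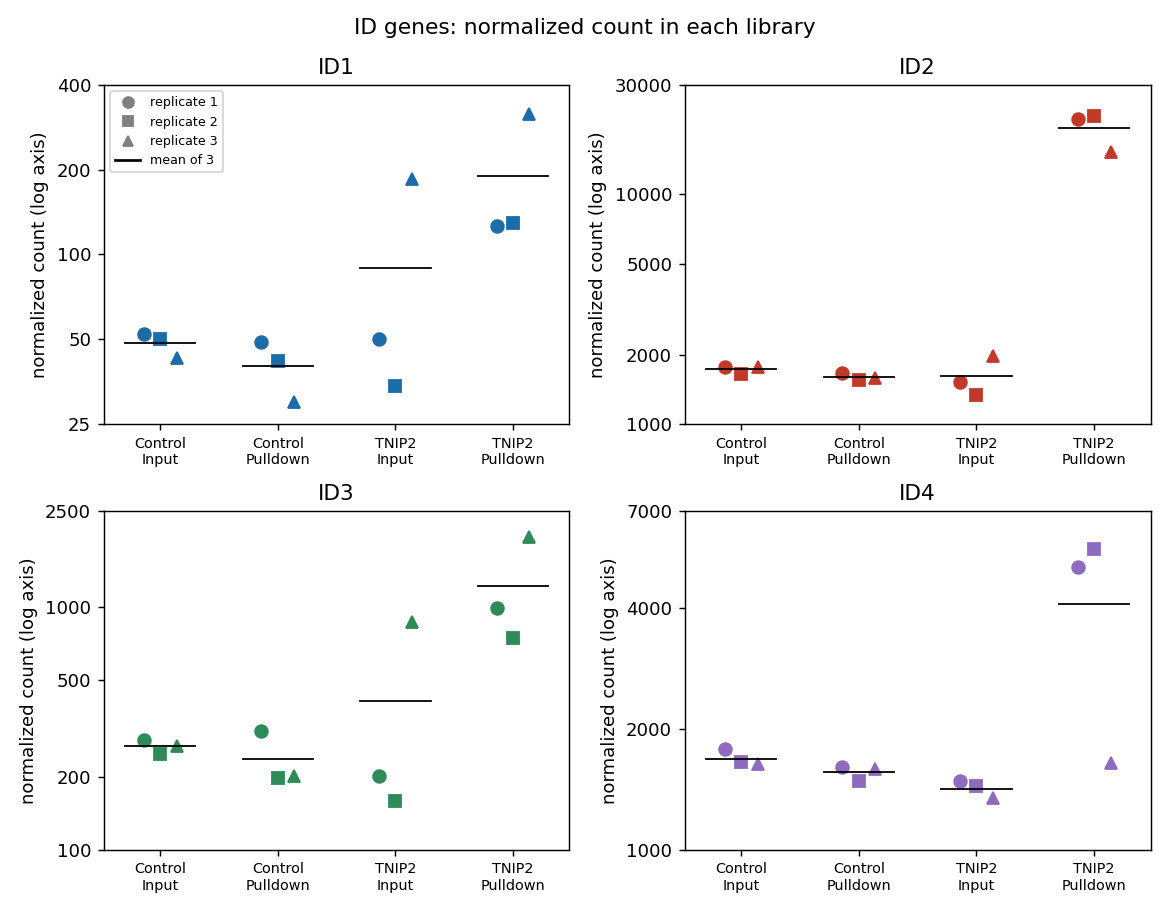
Each point is the normalized count of 1 library (vertical log axis, with its own range in each panel) by group (horizontal axis), marker shape gives the replicate number, and bars are means of 3. ID2 stands far above the other groups in TNIP2 Pulldown, ID1 and ID3 are high in both TNIP2 libraries numbered 3, and ID4 is low in TNIP2 Pulldown replicate 3, at 1647.

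Control Pulldown over Control Input asked what the tag and resin carry by themselves. None of the 4 members was called there by limma with Benjamini-Hochberg adjustment, with an adjusted p of 1 for each, at a background of 0.137% of genes called (20 of 14627). Without adjustment 342 genes passed 0.05, and voom run on the recovered reads called 20 genes. ID2 had a log2 fold change of -0.11 (95% interval -0.476 to 0.255, unadjusted p = 0.53) and ID4 of -0.11 (-0.798 to 0.57, unadjusted p = 0.73). All 3 ID4 libraries of Control Pulldown were below all 3 of Control Input, the highest at 1604 and the lowest Input at 1632. How many of all genes separate in this way was not counted, so nothing is read from it. Intervals were wider for ID1, at -0.28 (-1.33 to 0.772), and for ID3, at -0.21 (-1.24 to 0.833). Both of these intervals include a loss of more than 2-fold, so the values do not show that the levels were equal. The fit took 1 spread per gene from all 4 groups, so the intervals and p-values here also carry the spread of the TNIP2 libraries. For ID3 the highest library was 1.14 times the lowest in Control Input and 5.46 times in TNIP2 Input. For ID4 it was 1.08 times in Control Pulldown and 3.40 times in TNIP2 Pulldown.

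TNIP2 Input over Control Input asked whether the extracts differed before purification. Again 0 of 4 members were called by limma, each with an adjusted p of 1, beside 0.00684% of all genes, which is the TNIP2 gene alone (104 genes passed 0.05 without adjustment, and voom run on the recovered reads called 1). The log2 fold change was -0.12 for ID2 (95% interval -0.485 to 0.247) and -0.25 for ID4 (-0.933 to 0.436). The ID4 libraries of the groups did not overlap, but how many of all genes separate in this way was not counted. The change was 0.49 for ID1 (-0.557 to 1.54) and 0.19 for ID3 (-0.85 to 1.23), and these signs came from 1 library. Without TNIP2 Input replicate 3 they were -0.22 and -0.57.

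TNIP2 Input replicate 3 stood apart for ID1 and ID3 and not for ID2 and ID4. Relative to the mean of the other 5 Input libraries on the log2 scale, it was 2.01 higher for ID1 and 1.94 higher for ID3, positions 41 and 56 from the highest among 14627 genes, whose median was -0.01. For ID2 the difference was 0.30 and for ID4 it was -0.24. The values rest on 153 reads of ID1 and 722 of ID3, where counting error is 8.09% and 3.72%. In the purified material of the same number, ID1 was 1.30 and ID3 1.18 above the mean of TNIP2 Pulldown replicates 1 and 2, while ID2 was -0.49 and ID4 -1.69 from it, with 0.793% of genes lower than ID4. This library pair also had the most TNIP2 transcript, and the part of that in these values was not tested.

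TNIP2 Pulldown over Control Pulldown set the purified material of the constructs side by side. ID1, ID3 and ID4 all rose, in limma fitted over all genes with Benjamini-Hochberg adjustment, against a background of 30.6% of genes higher and 28.7% lower, so a rise by itself is common in this comparison. ID3 rose by 2.29 on the log2 scale (SE 0.486, adjusted p = 9.1e-04), with 96.9% of genes tested below it. ID1 had 2.10 (SE 0.492, adjusted p = 0.0019), with 95.6% of genes below it. ID4 had 1.21 (SE 0.320, adjusted p = 0.0046), with 83.9% below it. That SE comes from 1 spread shared by all 4 groups, and for ID4 the TNIP2 Pulldown libraries were the most uneven. With only the groups compared in the fit, the adjusted p of ID4 was 0.018. The ID4 value was 1.77 without TNIP2 Pulldown replicate 3, 0.89 without replicate 2, 0.96 without replicate 1 and 0.69 under quantile normalization. The median over all genes tested was 0.03. All 3 calls held in each alternative setting, and the family was picked for ID2 in the same libraries, so these members are not evidence independent of that choice.

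**Figure D3:**
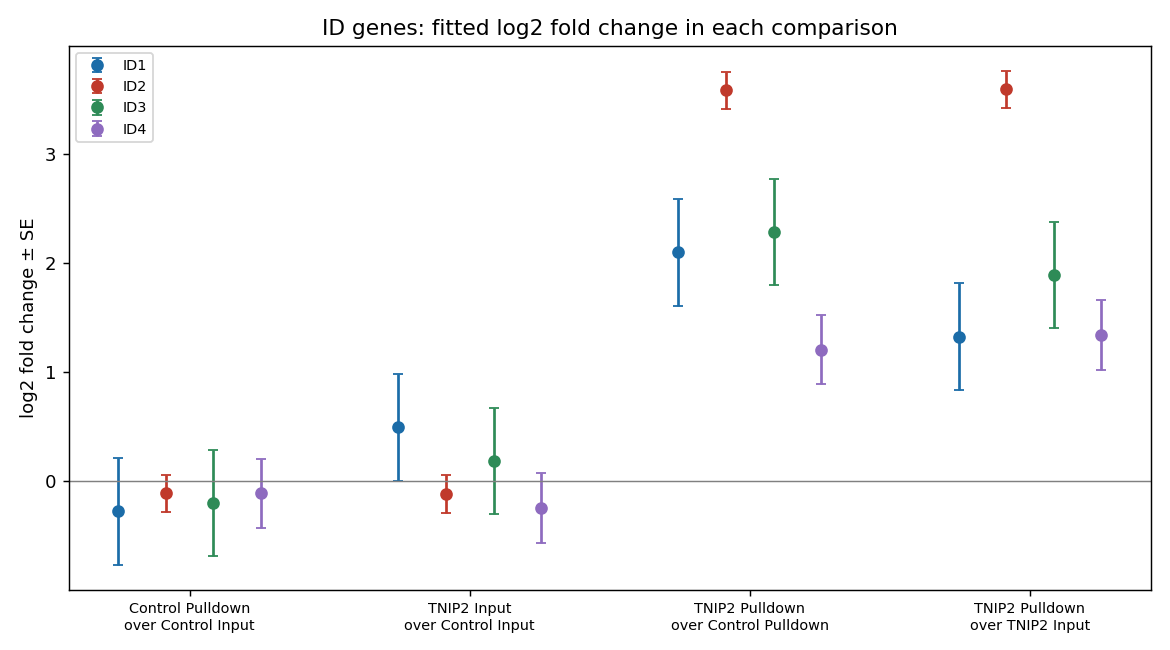
Points are the fitted log2 fold changes of the 4 members (vertical axis) in 4 comparisons (horizontal axis), and bars are 1 SE either side. Comparisons with no TNIP2 Pulldown lie between -0.28 and 0.49, and ID2 lies near 3.6 in both that have it.

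Set against its own extract by library number, every member had a higher value in TNIP2 Pulldown, and the ratio was lowest in number 3 for all 4. How many of all genes do either was not counted, so neither is read as a trait of the family. In number 3, ID1 and ID3 were high in the Input (185 and 873 normalized counts), while ID4 was low in the Pulldown (1647). The labels do not state a pairing. Same-numbered TNIP2 libraries deviated together from their group means (r = 0.369, 0.458 and 0.497), so ratios are given by number, while the fit below is unpaired. ID2 ratios were 13.9, 16.3 and 7.76, and ID3 ratios 4.94, 4.69 and 2.23. For ID1 the ratios were 2.52, 3.79 and 1.71, and for ID4 they were 3.42, 3.90 and 1.23. With the tag alone, the 12 ratios lay between 0.698 and 1.09, and ID3 in number 1 was the only one above 1. Fitted log2 fold changes of TNIP2 Pulldown over TNIP2 Input were 3.60 (SE 0.171), 1.89 (SE 0.486), 1.34 (SE 0.320) and 1.33 (SE 0.492) for ID2, ID3, ID4 and ID1, in a comparison that called 29.8% of all genes higher. Subtracting the change of the tag alone gave 3.71 (SE 0.242), 2.10 (SE 0.687), 1.46 (SE 0.453) and 1.60 (SE 0.696), at 22.6% of genes called higher. Without TNIP2 Input replicate 3 the change over the extract was 2.04 for ID1 and 2.65 for ID3, and the difference of enrichments 2.32 and 2.86. Without TNIP2 Input replicate 2 the change over the extract was 0.83 for ID1 and 1.43 for ID3. None of these values was tested, since all contain the TNIP2 Pulldown relative to its own extract, where ID2 was among the highest.

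**Figure D4:**
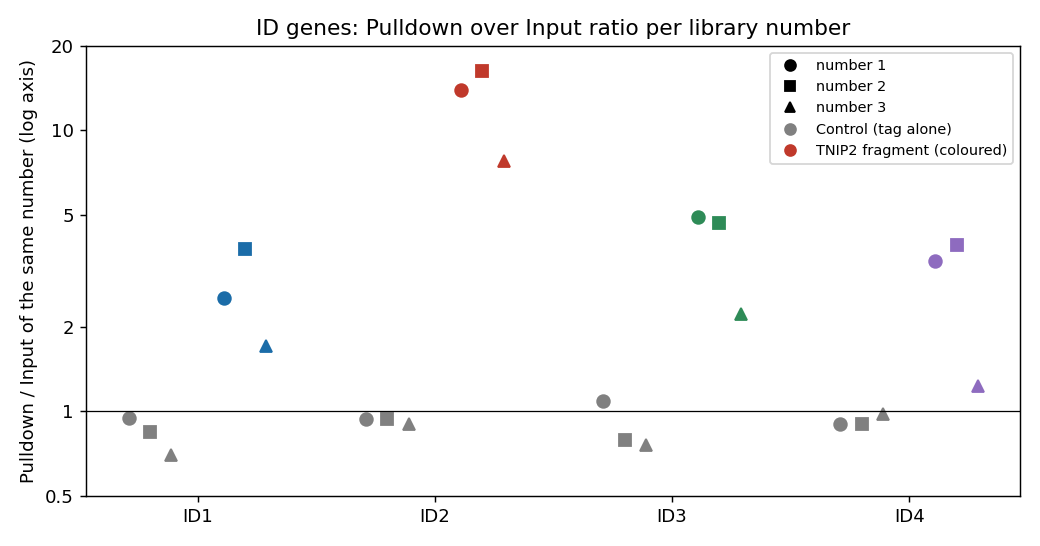
Points are ratios of normalized counts, Pulldown over Input of the same number (vertical log axis), for each member (horizontal axis), with the tag alone in grey and the TNIP2 fragment in colour. Tag-alone ratios lie between 0.698 and 1.09, and ID2 reaches 16.3 with the fragment.

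Across the 12 libraries on the log2 scale, ID1 and ID3 had a Pearson r of 0.973, ID2 and ID4 of 0.829, ID2 and ID3 of 0.826, and ID1 and ID4 of 0.364. These describe libraries that share a group structure and are given with no p. Likeness was ranked by r among genes with a mean normalized count of 100 or more, leaving out LOC, FLJ, KIAA and numbered open reading frame symbols. The genes most like ID2 were MRPS28 (0.997), ZNF77 (0.997), TOPBP1 (0.997), PSMA7 (0.997) and PCNA (0.997). PCNA, the sliding clamp of DNA replication, had means of 4280 in Control Pulldown and 28560 in TNIP2 Pulldown, while TOPBP1 had 2210 and 5623, so likeness of pattern did not mean likeness of size. Most like ID4 were PNMAL1 (0.988), MLLT3 (0.986), FAXC (0.983), HMGN4 (0.981) and URI1 (0.979), and FAXC likewise had 490 and 569 in TNIP2 Pulldown replicates 1 and 2 and 255 in replicate 3. FAM214A (0.985), TRMT6 (0.981), PPP2CA (0.980), TMCC2 (0.978) and APEX2 (0.978) were most like ID1. For ID3 they were VTA1 (0.987), ZNF473 (0.986), CLP1 (0.985), RPP30 (0.983) and ZFAND2A (0.983). ZFAND2A was high in both libraries numbered 3, with 161, 117 and 467 normalized counts before purification of the fragment and 646, 599 and 1164 after it.

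The nearest tested genes on the chromosome, by RefSeq gene order, were not called between Pulldowns beside ID2 and ID3. KIDINS220, with no RefSeq gene between it and ID2, had 0.33 on the log2 scale (SE 0.156, adjusted p = 0.081), and over the TNIP2 extract it rose by 0.49 (adjusted p = 0.015). RNF144A on the other side of ID2, with 25 RefSeq genes between, had 0.04 (adjusted p = 0.92). E2F2 and RPL11, either side of ID3, had 0.07 and -0.05 (adjusted p = 0.84 and 0.83). HM13 and BCL2L1, either side of ID1, fell by 0.71 and 0.57 (adjusted p = 0.0021 and 0.0095). Of the neighbours of ID4, RNF144B, with 20 RefSeq genes between, rose by 2.60 (SE 0.192, adjusted p = 6.2e-08), from 79.3 ± 16.0 to 482 ± 56.3 normalized counts (SD, n = 3), and MBOAT1 fell by 0.93 (adjusted p = 2.1e-04). No pseudogene or antisense entry named after a member was among the table's symbols.

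The E proteins, partners that ID proteins sequester, moved in both directions in TNIP2 Pulldown over Control Pulldown. TCF3 rose by 0.73 on the log2 scale (SE 0.136, adjusted p = 3.0e-04), with means of 1007 ± 68.2 and 1680 ± 163 normalized counts (SD, n = 3), and TCF4 rose by 1.06 (SE 0.222, adjusted p = 7.9e-04). TCF12 fell by 0.69 (SE 0.155, adjusted p = 0.0014), with means of 629 ± 26.6 and 391 ± 39.3. Of 16 tested tissue-specific helix-loop-helix genes, which pair with E proteins, 6 were higher and 2 lower with a median of 0.62, beside 30.6% higher and 28.7% lower among all genes. TWIST1, a mesenchymal factor, had 1.68, NEUROG2 and HAND1, of neurons and heart, had 2.00 and 1.52, and MESP2 had -1.99. NEUROG2 had a low mean of 17.7 normalized counts in Control Pulldown, and MESP2 one of 5.33 in TNIP2 Pulldown. Among 11 HES, HEY and related repressors, 7 were higher and 1 lower against the same shares of all genes, with a median of 1.34. HES1, a Notch target, rose from 369 ± 34.1 to 2506 ± 887 (log2 fold change 2.70, adjusted p = 1.2e-07), HES5 and HEY2 had 2.75 and 1.42, and HES4 fell from 1711 ± 90.4 to 266 ± 41.4 (-2.69, adjusted p = 1.8e-08).

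Ligands, receptors and secreted antagonists of the BMP and TGF-beta family were called in both directions in the same comparison. There, 30.6% of all genes were higher and 28.7% lower. The lists were not limited to BMP members or to genes known to act on the ID genes. Of 20 ligand genes tested, 5 were higher and 3 lower (median 0.34), with BMP7 at 1.43, BMP4 at 1.66, TGFB2 at 2.04 and the inhibin subunit INHA at -1.58. TGFB2 had a low mean of 11.3 normalized counts in Control Pulldown, and INHA one of 5.33 in TNIP2 Pulldown. Of 17 receptors and co-receptors 6 were higher and 2 lower (median 0.35), among them the type I receptor ACVR1B at 1.92, the co-receptors RGMA and RGMB at 2.04 and 1.96, and the decoy receptor BAMBI at 1.63. Secreted antagonists had 1 higher and 3 lower of 8 tested (median -0.53). FST, which encodes follistatin, had 3.18, and DAND5, CHRD and SOSTDC1 had -1.27, -0.82 and -1.10. FST rests on a mean of 8.33 normalized counts in Control Pulldown, where 1 read is worth 1.6 to 2.87. DAND5 and SOSTDC1 had low means of 6.33 and 11.7 in TNIP2 Pulldown.

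SMAD genes, the signal carriers, had 3 higher, 1 lower and 4 not called of 8, beside 30.6% higher and 28.7% lower among all genes, shares that also stand behind the next 2 lists. SMAD7, an inhibitory SMAD and itself a target of the pathway, rose by 3.54 on the log2 scale (SE 0.180, adjusted p = 5.7e-09), beside 3.59 for ID2. Its means were 146 ± 22.6 and 1694 ± 95.5 normalized counts (SD, n = 3). SMAD6, the other inhibitory SMAD, and SMAD3 rose by 0.85 and 1.67, and SMAD4, the common partner, fell by 0.52 (adjusted p = 0.0061). SMAD1, SMAD5 and SMAD9, which carry BMP signals, had -0.18, -0.38 and 0.24 (adjusted p = 0.50, 0.063 and 0.31), and SMAD2 had 0.28 (adjusted p = 0.30). Intracellular regulators had 8 higher and 1 lower of 12 (median 0.56), with SMURF1, a ubiquitin ligase for SMADs, at 1.29, TOB1 at 1.42, SKI at 1.74 and TGIF2 at -0.91. Of 16 other BMP or SMAD responsive genes tested, 14 were higher and 0 lower (median 1.28), with GATA2 at 4.15, DLX5 at 3.10 and JUNB at 2.30. DLX5 had a low mean of 11.3 normalized counts in Control Pulldown. GATA2 and JUNB were known to be high in these data when that list was drawn up, and SMAD6, SMAD7, BAMBI, TGIF1, SKIL, HEY1 and ATOH8 also stand in other lists, so the count is a description. In Control Pulldown over Control Input, and in TNIP2 Input over Control Input, no gene of any of these 9 lists was called. Only 0.137% and 0.00684% of all genes were called there, so the absence of calls is near those shares and nothing is read from it.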

How the data were processed

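The members and gene lists were chosen with earlier results of these data known. The authors deposited normalized counts (a score here, since whole numbers were already divided by library factors) and FPKM, per the file headers and values; Per the submitters' processing notes, TopHat2 2.0.14 and DESeq2 1.6.3 were used with hg19. How reads were counted, on which annotation and whether by strand is not given in the sources used here. Whole reads were recovered from the steps of the FPKM values: 8631 of 8633 low values came out whole within 0.1 reads, and 12 of 12 simulated steps were found. 1 read was worth 0.511 to 2.87 normalized counts; high read numbers carry a scale error. Counting errors cover counting only, since PCR copies are not independent.

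The fit in limma 3.58.1 (R 4.3.3) was made on log2(normalized count + 1), a scale that understates changes of low genes, for genes with 10 or more in at least 3 libraries. It had a mean per group, 1 spread per gene shared by the 4 groups, a trended prior in eBayes and 8 degrees of freedom left. P-values are two-sided and Benjamini-Hochberg adjusted over 14627 genes, with calls at 0.05. On simulated TNIP2 Input over Control Input data, 82 of 100 genes changed 2-fold and 99 of 100 changed 4-fold were recovered, with 3 false calls. The simulation gave every gene the same dispersion. It did not copy the spread of ID1, ID3 and ID4, whose residual SD was 0.76, 0.776 and 0.493, so recovery for them was not estimated. Same-numbered TNIP2 libraries deviated together (r = 0.369, 0.458 and 0.497), and Control libraries did not pass 0.1 (0.0744 to 0.0774). Named genes are the members, TNIP2, all E proteins and SMADs, up to 4 genes per other list with the smallest p between Pulldowns and a mean of 10 or more, neighbours, and the 5 most alike genes per member. Promoter windows come from RefSeq.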

Additional observations from a re-analysis of the deposited data

How the results depend on the processing

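The 3 tested rises between Pulldowns kept direction and call in all 24 alternatives, with adjusted p from 3.7e-05 to 0.018 for ID1, 1.2e-06 to 0.0093 for ID3 and 4.8e-09 to 0.031 for ID4. Their log2 fold changes ranged from 1.66 to 2.32, 1.89 to 2.58 and 0.685 to 1.77, and ID4 was lowest under quantile normalization. The replicate block gave 2.10, 2.28 and 1.21 for them and changed no call of a member. It shared each number's effect across both constructs, so it did not check pairing within the TNIP2 libraries alone. Signs of TNIP2 Input over Control Input were unstable. With 1 library left out in turn they ranged from -0.219 to 0.986 for ID1, -0.274 to 0.00688 for ID2 and -0.572 to 0.653 for ID3; centring on ribosomal protein genes gave 0.127 for ID2, and library weights gave -0.347 for ID3 (adjusted p = 0.042; the weights did not converge). Leaving out both TNIP2 libraries numbered 3, a choice made after seeing the data, gave -0.219 for ID1 and -0.572 for ID3. With 1 library left out, the untested change over the extract ranged from 0.834 to 2.04 for ID1 and 1.43 to 2.65 for ID3, and the difference of enrichments from 1.11 to 2.32 and 1.63 to 2.86. Of the other untested values, ID2 was 2.95 between Pulldowns, 2.96 over its extract and 3.06 as the difference of enrichments under quantile normalization. Ribosomal centring gave 3.25, 3.12 and 3.13, and leaving out both libraries gave 3.92 over the extract and 4.03 for the difference. ID4 over its extract was 0.818 under quantile normalization and 1.87 without both libraries, and 1.02 to 1.91 with 1 library left out. Its difference of enrichments was 0.927 under quantile normalization, 0.875 with ribosomal centring, 1.98 without both libraries and 1.14 to 2.02 with 1 left out. Genes called in Control Pulldown over Input numbered 31 under quantile normalization, 48 with only the groups compared, 136 with library weights, 41 without both libraries and 12 to 32 with 1 left out, against 20. In TNIP2 Input over Control Input they numbered 3621 with library weights and 3 without both libraries, against 1. The causes of these differences were not tested. ID1 in Control Pulldown rests on 12 to 26 reads.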
